A study of Mus musculus with 18 samples.

Results

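Cytosolic sulfotransferases were followed through the liver RNA of 18 ICR mice. They were taken by symbol from a table of 19057 gene symbols as 8 genes, Sult1a1, Sult1b1, Sult1d1, Sult1e1, Sult2a1, Sult2a2, Sult3a1 and Sult5a1, and all 8 were found. The mice were male by the study's methods, were sampled at 10 weeks of age, and formed 6 groups of 3. Con received regular diet and saline. STZ received 1 injection of streptozotocin, a toxin of the insulin-making cells of the pancreas that is used to model type 1 diabetes. A10-FMT received STZ and then microbiota from donor mice given alginate oligosaccharides (AOS) at 10 mg/kg, and Con-FMT received STZ and then microbiota from control donors. The study names this a fecal microbiota transplant (FMT), but by its methods the donor material was content of the small intestine. AOS and STZ+AOS were named in the sample labels, with the oligosaccharide at 10 mg/kg, and are not described in the study's text. The donor microbiota were pooled within a donor group, so the 3 recipients of a group shared 1 inoculum. Whole liver was sequenced, and in such bulk tissue fewer cells of a type and less RNA per cell cannot be told apart.

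Values were RPKM, read counts corrected for the length of the transcript and for the mapped reads of each library, so levels can be set side by side between genes. RPKM does not hold the number of reads. Steps between low values of 24 genes placed the depth of the 18 libraries between 0.927 and 1.08 of their average. Each library had 9955 to 10409 genes at 1 RPKM or more. RPKM summed over all genes came to 749557 to 806937 in Con and 631126 to 684659 in STZ. Differences between groups were tested with limma on log2(RPKM + 1) over 10602 genes (the 12 libraries without AOS and STZ+AOS) or 10822 genes (all 18 libraries), and a gene was called at a Benjamini-Hochberg adjusted p under 0.05. The median gene was 0.21 higher in STZ than in Con on this log2 scale, and its difference was -0.01 once libraries were put on a common scale by their median ratio to a mean library (median-ratio scaling). Under that scaling 1488 genes were higher and 1405 lower in STZ, against 3502 higher and 585 lower without it. The liver of STZ+AOS mouse 3 stood apart from the other 17. It carried the pancreatic acinar genes Ctrb1 (36.45 RPKM), Amy2a5 (10.08), Prss2 (7.74), Pnlip (7.23) and Cpa1 (3.31), which were at 0.61 RPKM or less in every other liver, and it had the highest Tat (4124.31 RPKM) and Hnf4a (345.63 RPKM). For STZ+AOS against AOS and STZ+AOS against STZ, the counts of called members and the printed log2 differences of members are given with and without it. Other results that include it are given with it alone.

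These enzymes move a sulfonate group from the donor PAPS to small molecules, which makes phenols, hormones, bile acids and drugs more soluble and often less active. Liver is one of their main sites. Sult1a1 acts on simple phenols, Sult1b1 on thyroid hormones and phenols, Sult1d1 on catecholamines, and Sult1e1 on estrogens. Sult2a1 and Sult2a2 act on hydroxysteroids and bile acids, and Sult3a1 sulfonates amines. The substrates of Sult5a1 are little known. In mouse liver Sult2a1, Sult2a2 and Sult3a1 are known as genes expressed mainly in females.

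By GENCODE M21 (GRCm38), 3 members lie next to each other on the minus strand of chromosome 5, Sult1b1 at chr5:87513339-87538195, Sult1d1 at chr5:87554645-87569027 and Sult1e1 at chr5:87575969-87591594. Sult2a2 (chr7:13733505-13779636, plus strand) and Sult2a1 (chr7:13796246-13837409, minus strand) are neighbours on chromosome 7, which also holds Sult1a1 at chr7:126672865-126676432. Sult5a1 lies at chr8:123140192-123158315 and Sult3a1 at chr10:33857721-33879532. Of all stretches of 50 bases in the transcripts of Sult2a1, 33.2% also occur in transcripts of other genes, and 29.5% occur in Sult2a2. The share was 62.1% for Sult2a2, so the levels of this pair are uncertain where reads could be assigned to either. It was 7.72% for Sult1a1, 6.15% for Sult3a1 (all with Sult3a2), 1.36% for Sult5a1 and 0% for Sult1b1, Sult1d1 and Sult1e1.

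RefSeq promoter sequences (GRCm38.p6) were matched for 6 of the 8 members. The 250 bases before the start site are shown for the 3 neighbours on chromosome 5, which differed in their response to STZ, and for Sult3a1, which was listed at 0 in Con. They lie at chr5:87538196-87538445, chr5:87569007-87569256 and chr5:87591612-87591861 on the minus strand and at chr10:33857472-33857721 on the plus strand. Capitals mark AGGTCA, the half-site of many nuclear receptors, read on either strand, and TTCNNNGAA, the element of STAT factors.
Sult1b1: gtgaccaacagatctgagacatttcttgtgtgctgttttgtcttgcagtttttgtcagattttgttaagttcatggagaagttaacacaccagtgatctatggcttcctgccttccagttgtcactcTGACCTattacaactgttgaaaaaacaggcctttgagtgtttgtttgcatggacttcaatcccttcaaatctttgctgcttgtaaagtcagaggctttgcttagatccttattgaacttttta
Sult1d1: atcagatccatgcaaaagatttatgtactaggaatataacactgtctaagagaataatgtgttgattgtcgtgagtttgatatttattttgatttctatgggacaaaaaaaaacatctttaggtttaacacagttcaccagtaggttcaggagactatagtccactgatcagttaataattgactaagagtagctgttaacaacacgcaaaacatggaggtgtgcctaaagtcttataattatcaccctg
Sult1e1: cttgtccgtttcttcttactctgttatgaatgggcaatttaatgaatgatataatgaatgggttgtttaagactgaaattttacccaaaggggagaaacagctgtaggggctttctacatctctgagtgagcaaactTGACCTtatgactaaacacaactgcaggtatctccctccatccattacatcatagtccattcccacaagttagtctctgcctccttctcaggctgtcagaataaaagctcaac
Sult3a1: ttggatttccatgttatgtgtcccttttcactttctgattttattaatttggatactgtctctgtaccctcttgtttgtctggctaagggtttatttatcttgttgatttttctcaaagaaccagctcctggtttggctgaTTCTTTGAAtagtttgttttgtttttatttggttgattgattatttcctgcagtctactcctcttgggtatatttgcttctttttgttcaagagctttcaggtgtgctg
AGGTCA was found, as TGACCT, in Sult1b1 from -123 to -118 and in Sult1e1 from -113 to -108, counted from the start site. TTCNNNGAA was found in Sult3a1 from -109 to -101. Of 32851 promoters of this length, 14% held AGGTCA and 7.02% held TTCNNNGAA. RefSeq gives Sult1b1 another start site, with its promoter at chr5:87536223-87536472, where neither was found. Neither was found in the sequence of Sult1d1. The matches describe the letters of these windows.

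In Con livers Sult1a1 was the highest of the 8 members, with 168.27, 179.85 and 180.97 RPKM in mice 1, 2 and 3. Sult2a8, a cytosolic sulfotransferase outside the 8, was higher, with 291.69, 371.17 and 328.7 RPKM. Among the members Sult5a1 followed Sult1a1 with 30.03 to 43.75 RPKM, then Sult1d1 with 15.63 to 26.01 and Sult1b1 with 7.38 to 17.43. The other 4 members were close to absent. Sult1e1 was at 0 to 0.22 RPKM, Sult2a1 at 0.07 to 0.56 and Sult2a2 at 0 to 0.11, and Sult3a1 was listed at 0 in all 3 mice. From the steps between low values, 1 read was worth about 0.053 RPKM of Sult1e1, 0.072 of Sult2a1, 0.11 of Sult2a2 and 0.068 of Sult3a1. These Con levels therefore rest on a few reads per library.

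**Figure D1:**
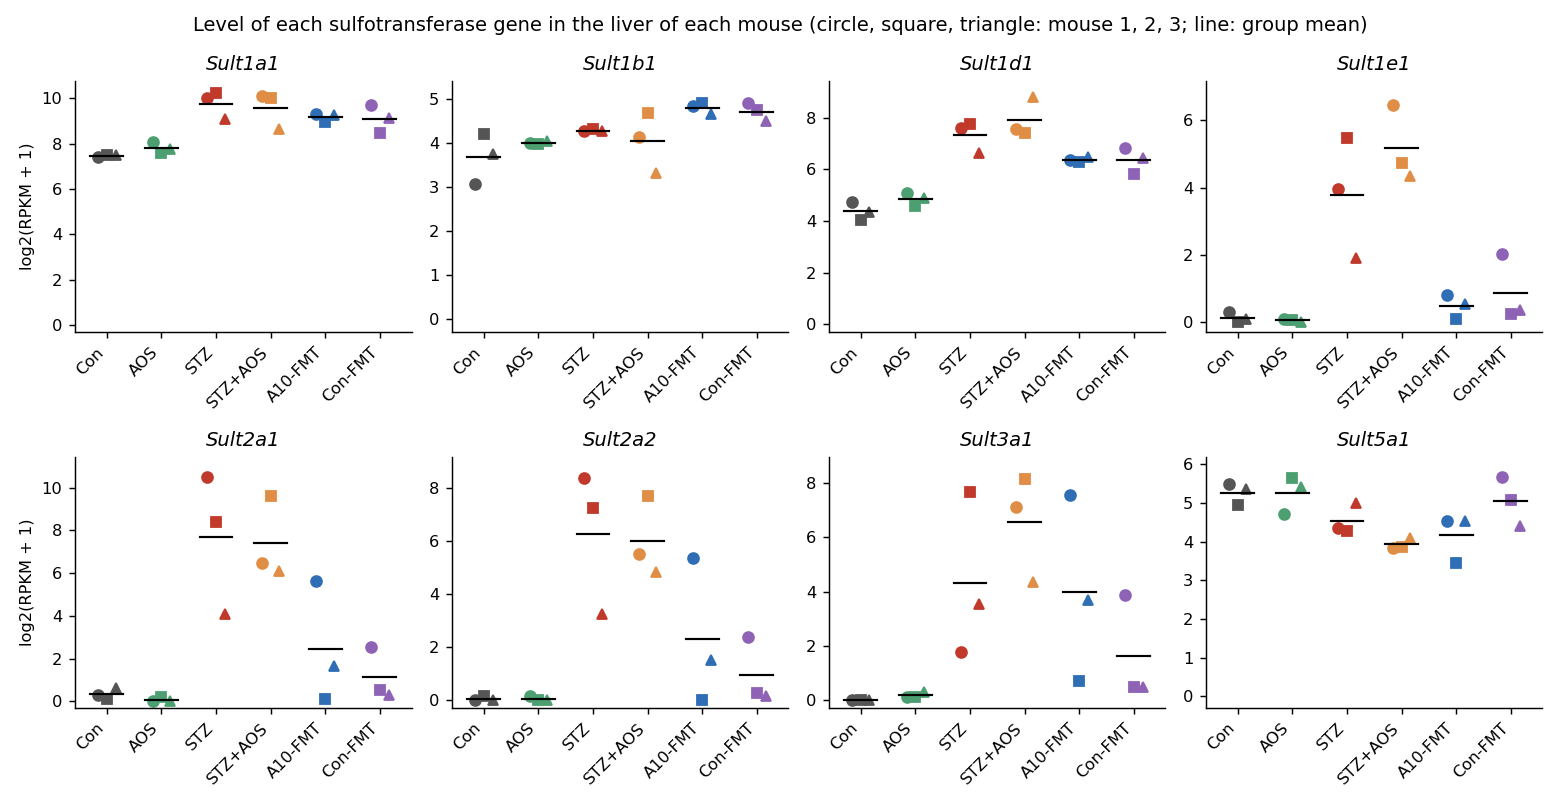
Level of each of the 8 genes as log2(RPKM + 1) in each liver, by group, with the group mean as a line. Sult1e1, Sult2a1, Sult2a2 and Sult3a1 lie near 0 in the 6 Con and AOS mice and spread widely in STZ and STZ+AOS, while over all 18 livers Sult1b1 stays between 7.38 and 29.27 RPKM and Sult5a1 between 9.87 and 50.28 RPKM.

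STZ against Con shows how the family differed in livers of mice made diabetic. Of the 8 members, 5 rose and 0 fell, against 38.5% of all tested genes called in either direction and 33% called higher. The members were chosen with earlier results of these data known. Member counts and medians set beside all genes, here and below, are therefore a description and not a test. The members that rose were Sult1a1, Sult1d1, Sult1e1, Sult2a1 and Sult2a2. The median log2 difference was 3.30 over the 8 members and 0.21 over all genes. In 7 of 8 members the STZ mice lay wholly above the Con mice, as in 40.8% of all genes, and 47.7% of all genes did not overlap in either direction. All 8 passed the filter on low values, but Sult1e1 reached 1 RPKM in 1 of the 9 mice outside STZ and passed through the STZ mice, so its difference is not independent of the filter.

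Sult1a1, the phenol sulfotransferase, was at 1016.75, 1190.76 and 537.81 RPKM in STZ mice 1, 2 and 3. Every STZ mouse was above every Con mouse, and the mean RPKM was 5.19 times that of Con. The log2 difference was 2.29 ± 0.32 (SE, n = 3 against 3, limma adjusted p = 0.000722). Sult1d1, the catecholamine sulfotransferase, stood at 195.93, 214.70 and 98.28 RPKM in the same mice. Its mean was 8.33 times that of Con, a log2 difference of 2.95 ± 0.31 (limma adjusted p = 0.000292). For both genes mouse 3 was the lowest of the STZ group. The ratio of Sult1a1 to Sult1d1 was 5.19 to 5.55 in the 3 STZ mice and 6.47 to 11.5 in Con.

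Sult1e1, the estrogen sulfotransferase, reached 14.62, 43.13 and 2.71 RPKM in STZ mice 1, 2 and 3. Its log2 difference was 3.65 ± 0.72 (limma adjusted p = 0.00345). Sult2a1, a hydroxysteroid sulfotransferase, was at 1460.45, 332.64 and 16.10 RPKM. In mouse 1 it was thus the highest of the 8 genes, above Sult1a1, and between the highest and lowest STZ mouse it differed 90.7-fold. Its log2 difference was 7.33 ± 1.55 (limma adjusted p = 0.00474). Sult2a2 was at 328.77, 151.70 and 8.37 RPKM, a log2 difference of 6.23 ± 1.39 (limma adjusted p = 0.00616). The order of the STZ mice was the same for Sult2a1 and Sult2a2, with mouse 3 lowest, while Sult1e1 was highest in mouse 2. The size of these differences depends on the 1 added to RPKM. With 0.1 in its place they were 6.14 for Sult1e1, 9.25 for Sult2a1 and 9.20 for Sult2a2 (limma adjusted p = 0.00224, 0.00475 and 0.00483).

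Sult3a1, the amine sulfotransferase, was at 2.41, 203.83 and 10.70 RPKM in STZ mice 1, 2 and 3. All were above Con, where it was listed at 0, but the spread was 84.6-fold and the log2 difference of 4.33 ± 1.71 did not pass the test (limma adjusted p = 0.0644). It passed with 0.1 as the added constant (7.47, adjusted p = 0.0144), with all 18 libraries in the fit (4.33, adjusted p = 0.0429) and without STZ mouse 1 (5.61, adjusted p = 0.0390). Under median-ratio scaling it did not pass (4.25, limma adjusted p = 0.0872). STZ mouse 1 had the highest Sult2a1 of the study and the lowest Sult3a1 of the 6 STZ and STZ+AOS mice. Sult2a1 was 606 times Sult3a1 in that liver and 1.63 and 1.5 times in STZ mice 2 and 3.

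Sult1b1, the thyroid hormone sulfotransferase, was at 18.24, 18.85 and 18.22 RPKM in STZ. These values lay just above the highest Con mouse, and the log2 difference of 0.61 ± 0.22 did not pass the test (limma adjusted p = 0.0510). It was 0.87 without Con mouse 2 (adjusted p = 0.00855) and 0.36 under median-ratio scaling (adjusted p = 0.215). Sult5a1 was at 19.48, 18.34 and 30.77 RPKM, overlapping Con, with a log2 difference of -0.73 ± 0.36 (limma adjusted p = 0.125). The 3 neighbours on chromosome 5 thus had log2 differences of 0.61, 2.95 and 3.65, in the order Sult1b1, Sult1d1 and Sult1e1.

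Summed over the 8 genes, RPKM came to 243 to 253 in Con and to 3057, 2174 and 723 in STZ mice 1, 2 and 3. The share of all RPKM was 0.0305% to 0.0333% in Con and 0.467%, 0.344% and 0.106% in the STZ mice. The sum leaves out 13 other cytosolic sulfotransferase genes, which came to 293.4 to 373.75 RPKM in Con and 59.65 to 227.53 in STZ. Sult1a1 made up 68.4% to 74.0% of the sum of the 8 genes in Con. It made up 33.3% in STZ mouse 1, 54.8% in mouse 2 and 74.4% in mouse 3. STZ mouse 3 was the lowest of its group for 6 members and for the sum.

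**Figure D2:**
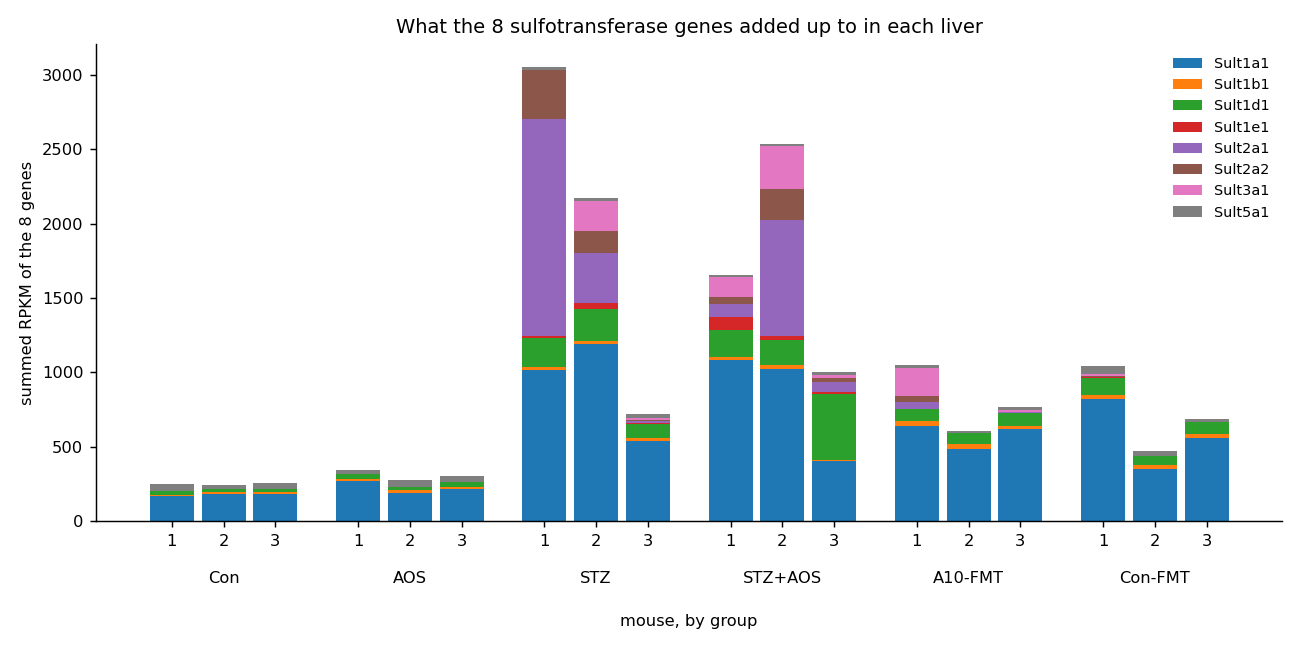
Summed RPKM of the 8 genes in each liver, stacked by gene, for the 3 mice of each group. The sum is 243 to 253 in Con and 723 to 3057 in STZ, with Sult2a1 the largest piece in STZ mouse 1 and Sult1d1 in STZ+AOS mouse 3.

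STZ+AOS against AOS repeats the comparison in mice given the oligosaccharide, with no mouse in common with Con or STZ. Of the 8 members 6 rose and 1 fell, against 37.9% of all genes called, 31.8% higher and 6.11% lower. The groups did not overlap in 7 of 8 members and in 49.1% of all genes. Sult1a1 was at 1083.61, 1025.34 and 401.96 RPKM in STZ+AOS and at 267.56, 191.42 and 215.61 in AOS, a log2 difference of 1.77 ± 0.37 (limma adjusted p = 0.00229). Sult1d1 was at 186.79, 170.95 and 440.60 RPKM against 33.34, 22.87 and 28.45, a log2 difference of 3.07 ± 0.35 (limma adjusted p = 6.8e-05). STZ+AOS mouse 3 had the highest Sult1d1 of all 18 mice and the lowest Sult1a1 of its group, and it was the sole liver in which Sult1d1 exceeded Sult1a1 (ratio of Sult1a1 to Sult1d1 of 0.912). This is the liver with acinar genes, and their part in its values was not tested. Without it 7 members were called as well, beside 3457 of all genes (4102 with it). The log2 differences were then 2.24 for Sult1a1 and 2.64 for Sult1d1 (limma adjusted p = 0.000541 and 0.000185).

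Sult1e1 was at 86.41, 25.77 and 19.41 RPKM in STZ+AOS and at 0 to 0.06 in AOS, a log2 difference of 5.13 ± 0.70 (limma adjusted p = 0.000215). Sult2a1 was at 87.41, 780.99 and 66.59 RPKM against 0 to 0.14 (7.32 ± 1.45, adjusted p = 0.00173). Sult2a2 was at 44.03, 208.03 and 27.19 RPKM against 0 to 0.11 (5.96 ± 1.28, adjusted p = 0.00277). Here Sult3a1 passed the test too, with 139.83, 288.08 and 19.39 RPKM against 0.07 to 0.22 (6.39 ± 1.58, adjusted p = 0.00630). Mouse 2 was highest for Sult2a1, Sult2a2 and Sult3a1, and mouse 1 for Sult1e1. Sult5a1 fell, from 25.36 to 49.36 RPKM in AOS to 13.29, 13.44 and 16.18 in STZ+AOS (-1.33 ± 0.34, adjusted p = 0.00767). Sult1b1 was at 8.97 to 24.58 RPKM in STZ+AOS and at 14.71 to 15.51 in AOS, with a log2 difference of 0.04 ± 0.28. Without mouse 3 the differences were 5.54 for Sult1e1, 7.98 for Sult2a1, 6.55 for Sult2a2, 7.49 for Sult3a1, -1.42 for Sult5a1 and 0.40 for Sult1b1, of which Sult1b1 was not called (limma adjusted p = 0.212).

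A10-FMT against STZ and Con-FMT against STZ ask what the family looked like in STZ mice that received microbiota. These comparisons share the STZ mice. With limma, 0 of the 8 members were called in A10-FMT against STZ, where 0.226% of all genes were called. There 5 members and 20.9% of all genes had an unadjusted p under 0.05. In Con-FMT against STZ 0 of 8 were called, where 0.00943% of all genes were called. In that comparison 4 members and 20.1% of all genes had an unadjusted p under 0.05. The mice did not overlap with STZ in 3 of 8 members in A10-FMT (21.5% of all genes) and in 3 of 8 in Con-FMT (17.7% of all genes).

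Sult1e1 was at 0.75, 0.06 and 0.46 RPKM in A10-FMT and at 3.10, 0.17 and 0.28 in Con-FMT. All A10-FMT mice lay below all STZ mice, while Con-FMT mouse 1 was above STZ mouse 3. The log2 differences from STZ were -3.29 ± 0.72 (limma adjusted p = 0.0658) and -2.90 ± 0.72 (limma adjusted p = 0.0847). Sult2a1 was at 48.26, 0.08 and 2.14 RPKM in A10-FMT, where mouse 1 exceeded STZ mouse 3. In Con-FMT it was at 4.92, 0.43 and 0.22 RPKM, below every STZ mouse. Its differences were -5.20 ± 1.55 (limma adjusted p = 0.114) and -6.54 ± 1.55 (limma adjusted p = 0.0754).

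Sult2a2 followed Sult2a1 from mouse to mouse, with 40.17, 0 and 1.87 RPKM in A10-FMT and 4.19, 0.21 and 0.11 in Con-FMT. The part of reads shared by this pair was not tested. Sult3a1 was at 187.02, 0.63 and 11.85 RPKM in A10-FMT, which spanned the STZ mice, and its log2 difference was -0.35 ± 1.71. In Con-FMT it was at 13.75, 0.39 and 0.40 RPKM (-2.72 ± 1.71). In the FMT mice with Sult2a1 at 1 RPKM or more, A10-FMT mice 1 and 3 and Con-FMT mouse 1, Sult3a1 was 2.79 to 5.54 times Sult2a1. In the STZ mice it was 0.00165 to 0.665 times. In STZ+AOS mice 1, 2 and 3, which received no transplant by their labels, it was 1.60, 0.369 and 0.291 times.

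Sult1d1 was at 77.20 to 88.66 RPKM in A10-FMT, below every STZ mouse, and at 56.00 to 114.04 in Con-FMT. Sult1a1 was at 487.81 to 641.84 RPKM in A10-FMT mice and 353.20 to 820.42 in Con-FMT, and both ranges overlapped STZ. Sult1b1 went the other way, with 24.50 to 29.04 and 21.52 to 29.27 RPKM, above every STZ mouse in both groups. Its log2 differences from STZ were 0.53 ± 0.22 and 0.44 ± 0.22 (limma adjusted p = 0.213 and 0.291). Sult5a1 was at 9.87 to 22.23 RPKM in A10-FMT mice and 20 to 50.28 in Con-FMT.

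These counts depended on STZ mouse 3. Without it, 4 members were called lower in A10-FMT than in STZ, Sult1d1 (-1.31), Sult1e1 (-4.24), Sult2a1 (-6.99) and Sult2a2 (-5.52), with limma adjusted p of 0.0122, 0.00135, 0.00982 and 0.0182. In Con-FMT 5 were called lower, the same 4 (-1.32, -3.84, -8.32 and -6.88) and Sult1a1 (-1.01, adjusted p = 0.0345). The number of all genes called rose at the same time from 24 to 1343 in A10-FMT and from 1 to 1636 in Con-FMT.

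**Figure D3:**
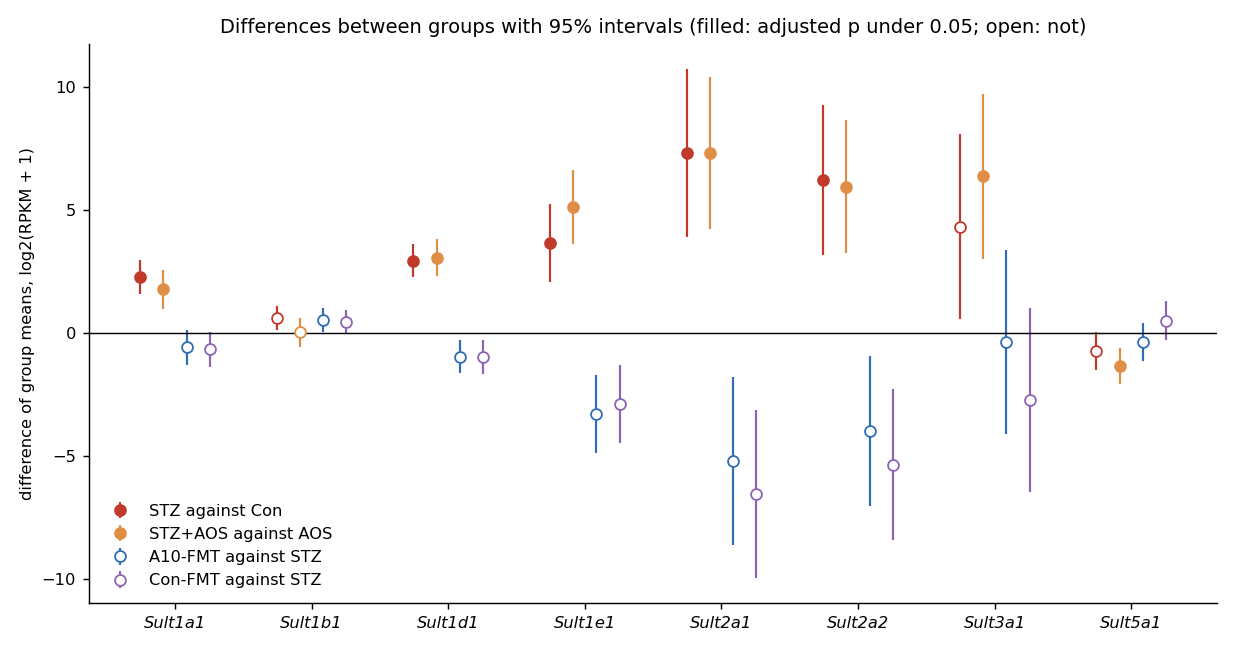
Difference of group means on the log2(RPKM + 1) scale for each gene in 4 comparisons, with 95% intervals; filled points had an adjusted p under 0.05. STZ against Con and STZ+AOS against AOS have filled points from 1.77 to 7.33 and 1 at -1.33, while all points of A10-FMT and Con-FMT against STZ are open.

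Set against Con, the FMT groups had 3 members called, all higher, and they were Sult1a1, Sult1b1 and Sult1d1 in both. In A10-FMT 18.4% of all genes were called and 15.9% were higher, and in Con-FMT 19.4% and 17.5%. These comparisons share the Con mice. Mean Sult1a1 was 3.30 times Con in A10-FMT and 3.28 times in Con-FMT, with log2 differences of 1.71 ± 0.32 and 1.63 ± 0.32 (limma adjusted p = 0.00690 and 0.00926). For Sult1d1 the means were 4.05 and 4.17 times Con (1.99 ± 0.31 and 1.98 ± 0.31, adjusted p = 0.00307 and 0.00382). For Sult1b1 they were 2.18 and 2.05 times Con (1.13 ± 0.22 and 1.04 ± 0.22, adjusted p = 0.00911 and 0.0123). Without Con-FMT mouse 1 the call of Sult1b1 in Con-FMT was lost (0.94, adjusted p = 0.0552). Sult1e1, Sult2a1, Sult2a2 and Sult3a1 were not called against Con in either group. Sult5a1 in A10-FMT was below every Con mouse (-1.10 ± 0.36, adjusted p = 0.0528) and passed the test under median-ratio scaling (-1.30, adjusted p = 0.0418).

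Between the donors, A10-FMT against Con-FMT, limma called 0 of 8 members and 0% of all genes. An unadjusted p under 0.05 was found for 1 member, Sult5a1 (-0.88, 95% interval -1.66 to -0.10), and for 2.86% of all genes. The intervals of the 3 members that were above Con were -0.62 to 0.78 for Sult1a1, -0.40 to 0.58 for Sult1b1 and -0.66 to 0.69 for Sult1d1. For Sult2a1 the interval ran from -2.06 to 4.74 and for Sult3a1 from -1.38 to 6.12.

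AOS against Con and STZ+AOS against STZ show the oligosaccharide without and with STZ, tested in the model of 18 libraries. AOS against Con called 0 of 8 members, and 0 had an unadjusted p under 0.05; 0.00924% of all genes were called. The AOS mice lay above Con without overlap in 2 of 8 members, Sult1a1 and Sult3a1, the latter at 0.07 to 0.22 RPKM. Of all genes 19.1% lay above Con in this way, and 24.4% did not overlap in either direction. STZ+AOS against STZ called 0 of 8 members and 0% of all genes, and 0 members had an unadjusted p under 0.05. Sult5a1 was lower in STZ+AOS than in STZ without overlap, with a difference of -0.61 (95% interval -1.33 to 0.11). Of all genes 1.05% were lower without overlap, and 5.13% did not overlap in either direction. Sult1e1 was higher by 1.41 (95% interval -0.08 to 2.90) and the difference of Sult1a1 was -0.18 (95% interval -0.96 to 0.60). Without STZ+AOS mouse 3 the difference of Sult1a1 was 0.28, that of Sult1e1 1.82 and that of Sult5a1 -0.70. Limma then called 0 members and 1 of all genes. The difference between the AOS effects with and without STZ called 0 of 8 members, none at an unadjusted p under 0.05, and 0% of all genes.

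Ordered by mean RPKM, Sult1a1 ran STZ, STZ+AOS, A10-FMT, Con-FMT, AOS and Con, and neighbouring groups overlapped down to Con-FMT, which lay wholly above AOS. Sult1d1 and Sult1e1 were highest in STZ+AOS, then STZ, Con-FMT and A10-FMT. The FMT groups overlapped each other in both genes and lay wholly above AOS in Sult1d1. Sult2a1 and Sult2a2 ran STZ, STZ+AOS, A10-FMT and Con-FMT, and Sult3a1 ran STZ+AOS, STZ, A10-FMT and Con-FMT. STZ and STZ+AOS overlapped in every member except Sult5a1. Sult1b1 was highest in A10-FMT and Con-FMT, which both lay wholly above STZ, and Sult5a1 was highest in AOS and Con.

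The members did not move as 1 block within a group. Sult2a1 was 1.14 to 4.44 times Sult2a2 in the 9 livers with both at 1 RPKM or more, while its level in these livers ran from 2.14 to 1460.45 RPKM. Of the stretches of 50 bases in Sult2a2, 41.3% also occur in Sult2a1, and the part of shared reads in this likeness was not tested. Sult2a1 and Sult3a1 came apart in STZ mouse 1, and Sult1d1 and Sult1a1 came apart in STZ+AOS mouse 3, the liver with acinar genes.

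**Figure D4:**
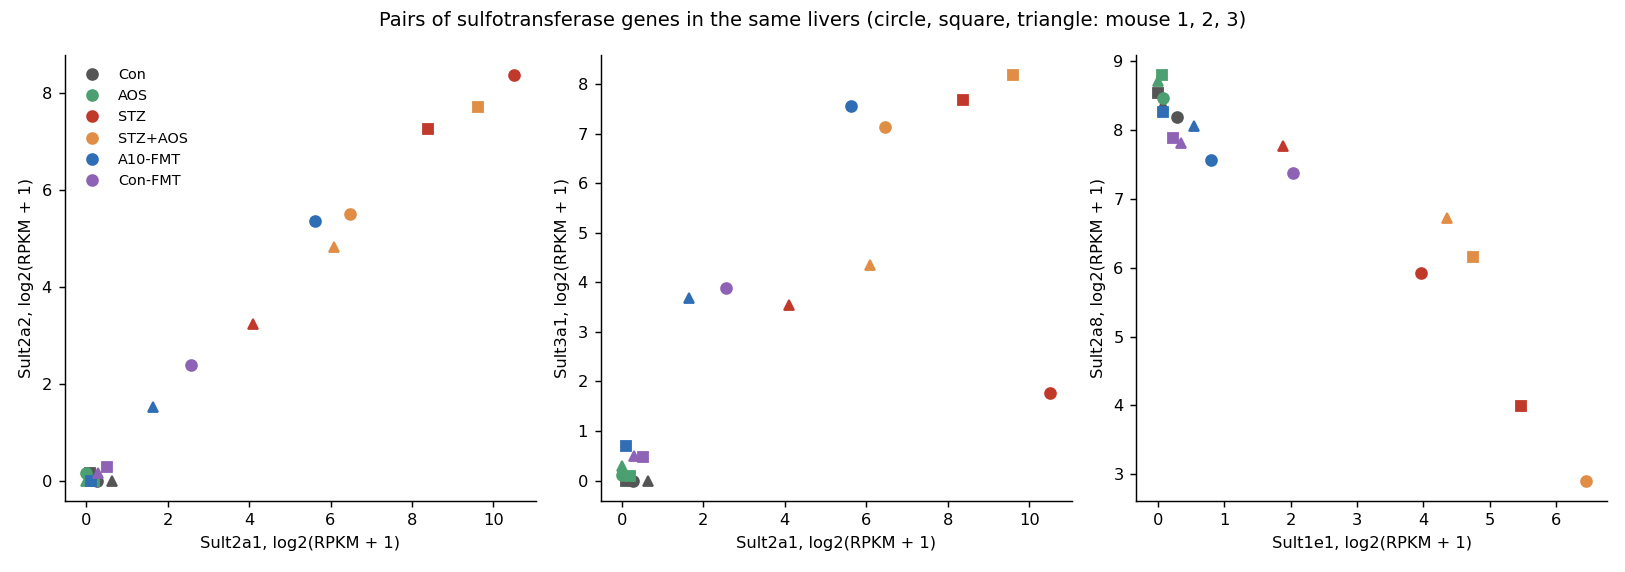
Each point is 1 liver, on log2(RPKM + 1) axes. Among livers that hold them Sult2a2 rises with Sult2a1, Sult3a1 falls away in STZ mouse 1 (2.41 RPKM beside 1460.45 RPKM of Sult2a1), and Sult2a8 is lowest in the livers with the most Sult1e1. Sult2a1 and Sult2a2 share part of their sequence.

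The table held 13 other cytosolic sulfotransferase genes, of which 5 passed the filter in the 12 libraries, with 2 higher, 1 lower and 2 not called in STZ against Con. Sult2a5, a neighbour of Sult2a2 on chromosome 7, was listed at 0 in Con and at 78.41, 21.42 and 0.83 RPKM in STZ (limma log2 difference 3.89 ± 1.11, adjusted p = 0.0188). Outside STZ it reached 1 RPKM in A10-FMT mouse 1 alone of these libraries (7.80 RPKM), so it passed the filter through the STZ mice and its difference is not independent of the filter. Its levels are also uncertain because 34.5% of its stretches of 50 bases occur in other genes as well. Sult2a7 was at 0.08 to 0.57 RPKM in Con and 1.36 to 8.04 in STZ (1.59 ± 0.55, adjusted p = 0.0397; 1.48 and 0.0693 under median-ratio scaling). The A10-FMT mice had 8.13, 22.44 and 8.60 RPKM of Sult2a7, the lowest of them close to STZ mouse 3 (8.04). The other groups given STZ were above Con as well. STZ+AOS mice 1, 2 and 3 had 6.35, 10.63 and 10.12 RPKM, while Con-FMT ran from 3.11 to 12.87. Limma did not call Sult2a7 in A10-FMT against STZ or against Con-FMT. Sult2a8, a bile acid sulfotransferase, fell from 291.69, 371.17 and 328.70 RPKM in Con to 59.44, 14.94 and 216.29 in STZ (-2.47 ± 0.67, adjusted p = 0.0151). It was the most abundant cytosolic sulfotransferase of Con livers, above Sult1a1. Sult2a8 was at 6.51 to 104.12 RPKM in STZ+AOS, 189.00 to 304.57 in the A10-FMT mice and 165.39 to 235.57 in Con-FMT. Sult2a3 was listed at 0 in all mice but the 6 of STZ and STZ+AOS, where it reached 44.85 RPKM in STZ mouse 1 and 15.33 in STZ+AOS mouse 2, the same mice that led Sult2a1.

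The supply of PAPS, the sulfonate donor, was read from 15 genes, of which 12 were tested. In STZ against Con 4 were higher, 2 lower and 6 not called, and under median-ratio scaling 3, 4 and 5. The genes for the PAPS synthases went opposite ways. Papss2, the main form in liver, rose from 26.92, 38.03 and 30.45 RPKM to 116.53, 74.52 and 72.88 (limma log2 difference 1.42 ± 0.22, adjusted p = 0.00110). Papss1 fell from 6.80, 8.31 and 8 to 3.54, 4.87 and 5.36 RPKM (-0.65 ± 0.13, adjusted p = 0.00360). In the FMT groups Papss2 stayed higher than in Con (1.23 ± 0.22 in A10-FMT, adjusted p = 0.00571, and 1.10 ± 0.22 in Con-FMT, adjusted p = 0.0095). In STZ+AOS against AOS it was not called, with 101.34, 120.61 and 39.99 RPKM against 47.05 to 49.85 (0.69 ± 0.31, adjusted p = 0.0920). The lowest of these values is that of mouse 3, the liver with acinar genes, and no fit without it is given for this list. In STZ+AOS against AOS 2 genes of the list were higher, 2 lower and 8 not called, and under median-ratio scaling 0, 4 and 8. Cdo1, which starts the oxidation of cysteine toward sulfate, and Suox, the sulfite oxidase, rose by 0.77 and 0.72 (limma adjusted p = 0.0213 and 0.00683; for Cdo1 0.0771 under median-ratio scaling). Impad1, a phosphatase of the spent cofactor, and Mpst, a sulfur transferase, differed by 0.54 and -0.54; these genes were named after their values were seen, as the rest of the called ones.

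Enzymes that remove sulfate, or add it to proteins and glycans in the Golgi, were compared as other parts of sulfate metabolism. Of 11 sulfatase genes and their factors 3 were higher, 0 lower and 8 not called in STZ against Con, and under median-ratio scaling 2, 1 and 8. Sulf2, which trims heparan sulfate outside the cell, rose by 1.91 ± 0.14 (limma adjusted p = 2.92e-05). Of 10 Golgi sulfotransferase genes 3 were higher, 2 lower and 5 not called, and under median-ratio scaling 1, 3 and 6. Gal3st1, which makes sulfatide, rose by 1.27 ± 0.38 (limma adjusted p = 0.0230), and Tpst2, a tyrosine sulfotransferase, fell by 0.41 (SE 0.14, adjusted p = 0.0384).

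Receptors and factors known to act on sulfotransferase genes were 16 tested genes, of which 7 were higher, 1 lower and 8 not called in STZ against Con, and under median-ratio scaling 5, 2 and 9. Nr1i3 (CAR) rose by 1.48 ± 0.31 and Nr1i2 (PXR) by 0.92 ± 0.16, the receptors of foreign compounds and bile acids (limma adjusted p = 0.00465 and 0.00200). Nfe2l2, the factor of the oxidative stress response, rose by 0.77 ± 0.11, and Hnf4a, a factor that maintains hepatocytes, by 0.75 ± 0.11 (adjusted p = 0.000831 and 0.00102). The lower gene was Stat5a, of the growth hormone pathway (-0.69 ± 0.16, adjusted p = 0.00640), named after its value was seen. Stat5b, of the same list and also named after its values were seen, was not lower. It was at 13.37, 13.97 and 13.04 RPKM in Con and 14.61, 19.47 and 16.25 in STZ. Ppara, the fatty acid receptor, differed by 0.34 ± 0.24 (adjusted p = 0.265). In STZ+AOS against AOS, Nr1i3 and Nr1i2 differed by 0.66 ± 0.32 and 0.37 ± 0.19 and were not called (limma adjusted p = 0.12 and 0.133). Mouse 3 was the lowest of STZ+AOS for both genes, with 57.35 and 26.69 RPKM, and no fit without it is given.

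Genes expressed mainly in livers of 1 sex were counted beside the family, because Sult2a1, Sult2a2 and Sult3a1 are of that kind; the lists hold no sulfotransferase. Of 18 tested female-predominant genes 14 were higher, 0 lower and 4 not called in STZ against Con, with a median log2 difference of 3.02 (12, 0 and 6 under median-ratio scaling). Of 15 male-predominant genes 0 were higher, 13 lower and 2 not called, with a median of -3.11, beside 0.21 for all genes. Among the called were the female-predominant Cyp2a4 (6.55), Cyp2b9 (5.71) and Cyp17a1 (5.21) and the male-predominant Mup20 (-6.98), Elovl3 (-6.48), Hsd3b5 (-6.31) and Cyp4a12a (-6.04), all enzymes but Mup20, a urinary protein. In A10-FMT against Con 10 female-predominant genes were higher and 4 male-predominant ones lower, and in Con-FMT against Con 4 and 6. Under median-ratio scaling these counts were 7 and 4 in A10-FMT and 2 and 6 in Con-FMT. In A10-FMT and Con-FMT against STZ 0 of either list were called by limma.

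The mean log2(RPKM + 1) of the female-predominant genes was 0.58 to 0.94 in Con, 5.28, 3.73 and 2.69 in STZ mice 1, 2 and 3, 2.21 to 3.58 in the A10-FMT mice and 1.67 to 3.17 in Con-FMT. STZ mice 1, 2 and 3 thus stood in the same order for these genes as for Sult2a1. For the male-predominant genes it was 7.75 to 7.83 in Con, 3.23, 3.29 and 6.12 in STZ mice 1, 2 and 3, 5.75 to 6.78 in the A10-FMT mice and 4.64 to 6.56 in Con-FMT. STZ mouse 3, with the lowest Sult1e1 and Sult2a1 of its group, was the one nearest to Con. The part of these genes in the sulfotransferase differences was not tested.

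**Figure D5:**
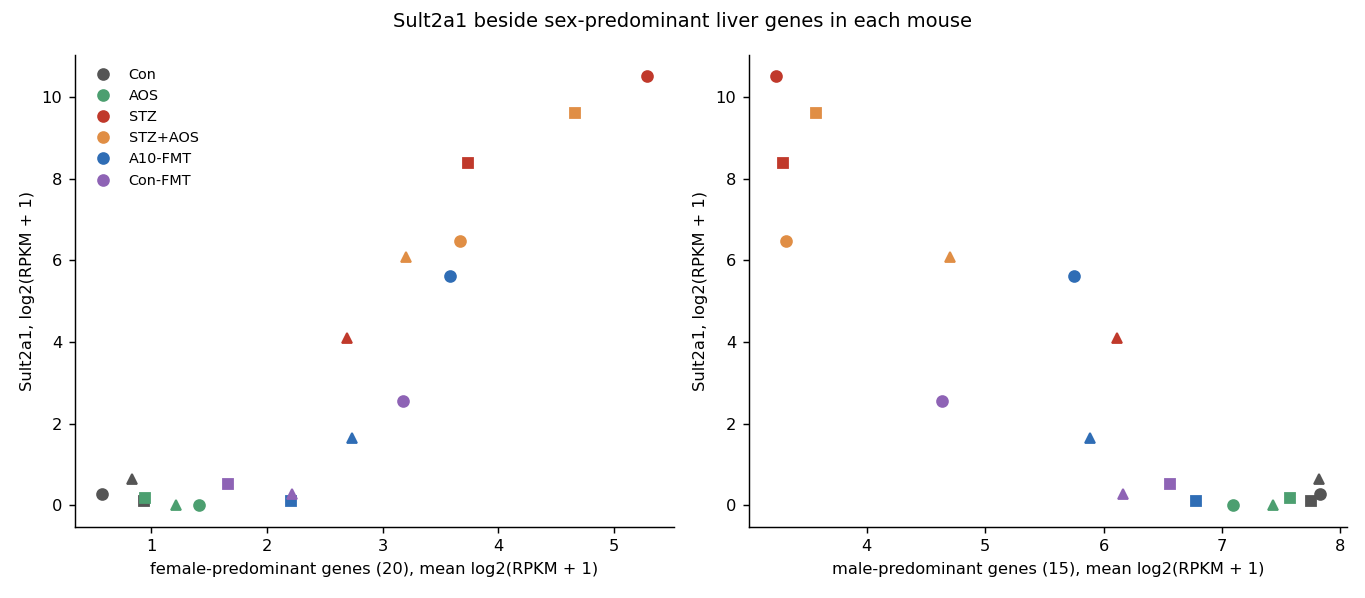
Sult2a1 in each liver beside the mean of 20 female-predominant genes and of 15 male-predominant genes, all as log2(RPKM + 1). The livers with the most Sult2a1, STZ mouse 1 and STZ+AOS mouse 2, have the highest means of the female-predominant genes (5.28 and 4.66).

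The livers carried hepatocyte genes in every group. The 10 hepatocyte markers summed to 66803 to 91071 RPKM in Con and 58838 to 71767 in STZ, and 3 were higher, 3 lower and 4 not called. The 6 Kupffer cell and macrophage markers summed to 57.8 to 86.1 RPKM in Con and 86.5 to 194 in STZ (1 called, higher), and the 6 stellate cell markers to 69.1 to 80.1 and 107 to 128 (1 called, higher, and 0 under median-ratio scaling). Of 6 endothelial markers 2 were higher (1 under median-ratio scaling), and their sums overlapped, with 38.0 to 43.8 RPKM in Con and 42.3 to 56.4 in STZ. The 6 pancreatic acinar markers summed to 31.6 to 40.8 RPKM in Con and 2.96 to 8.86 in STZ, nearly all of it Cela1 (30.84 to 40.50 and 2.96 to 8.73), and to 3.19 to 69.2 in STZ+AOS, with the highest sum in mouse 3. The part of these differences in cell markers in the sulfotransferase results was not tested.

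The genes whose levels were most like each member were sought among 10810 genes, the members left out, over the 18 libraries by Pearson's r of log2(RPKM + 1), as a description. For Sult1a1 they were Fh1 (0.978), Eno1b (0.975) and Asl (0.975), and for Sult1d1 Creg1 (0.976), Etf1 (0.974) and Wasl (0.973). For Sult1b1 they were Chac2 (0.943), Scrn2 (0.942) and Naxe (0.931). Sult1e1 was nearest to Igf2bp3 (0.962), Abcc4 (0.957) and Akr1b7 (0.949). Outside the members, Sult2a5 was nearest to both Sult2a1 (0.979) and Sult2a2 (0.975), followed for both by Prom1 (0.942 and 0.952), and Sult3a2 was nearest to Sult3a1 (0.956). Sult2a1 and Sult2a2 were nearer to each other (0.996). Of all stretches of 50 bases in the transcript of Sult2a5, 34.5% also occur in other genes and 22.2% in Sult2a2. The part of shared reads in these likenesses was not tested. Sult5a1 had no gene above 0.750, which was Smagp. The points share 6 groups, so a high r can come from differences between groups alone.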

How the data were processed

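Liver poly(A) RNA was sequenced by the authors on an Illumina HiSeq instrument, with 1 library for each of 18 mice. The deposited values are RPKM, which by the methods the authors obtained with SOAPaligner on the reference genes, keeping repeat hits; the submitters' processing notes name Bowtie 0.12.2 and mm10 instead, and the gene annotation is not given in the sources used here. Genes at 1 RPKM or more in at least 3 libraries of a fit were kept, and log2(RPKM + 1) was fitted by group with limma 3.58.1 in R 4.3.3 (eBayes with trend, Benjamini-Hochberg adjustment within a contrast). A stricter threshold was an FDR of 0.001 or less with a log2 difference of 1 or more.

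The members and lists were chosen with earlier results of these data known. Named genes were all members, the 4 largest called genes of each other list in STZ against Con, and Papss1, Papss2, Nr1i2, Nr1i3 and Ppara; some genes that this rule picks count in their lists but are not reported here by name. A permutation test of the summed level, planned at first, is not given, because the members were not chosen independently of these data. The procedure was tested on simulated data. Alternatives were median-ratio scaling, quantile normalization, an added constant of 0.1, other filters, no trend, all 18 libraries or the compared groups, a replicate block and leaving out each mouse. Because the values are RPKM, count tests were not run, and sampling error could not be calculated.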

Additional observations from a re-analysis of the deposited data

How the results depend on the processing

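No value of a member that was called in any setting reversed its direction. Of 975 member values called in neither setting compared, 49 changed sign. With the stricter threshold, 2 members passed in STZ against Con (of 5), 0 in A10-FMT against Con and 0 in Con-FMT against Con (of 3 each) and 2 in STZ+AOS against AOS (of 7). Of all genes 191, 33, 21 and 298 passed in these comparisons, in the same order. With a filter of 1 RPKM in every library, which leaves Sult1e1, Sult2a1, Sult2a2 and Sult3a1 out of the fit, 3 members were called in STZ against Con and 3 in STZ+AOS against AOS. Of all genes 3751 and 3664 were called there. Leaving out 1 mouse in turn gave 5 to 6 members in STZ against Con, 0 to 4 in A10-FMT against STZ, 0 to 5 in Con-FMT against STZ, 2 to 3 in Con-FMT against Con and 7 to 7 in STZ+AOS against AOS. The 2 member counts above 0 against STZ came without STZ mouse 3. Of all genes these fits called 2562 to 5012, 0 to 1343, 0 to 1636, 603 to 2096 and 2767 to 4045, in the same order. The number of all genes called in A10-FMT against STZ was 24, and 95 under median-ratio scaling; in Con-FMT against STZ it was 1 and 73. In A10-FMT against Con it was 1953 and 1164, in Con-FMT against Con 2059 and 874, and in STZ+AOS against AOS 4102 and 2654. With the stricter threshold STZ against Con called 191 of the 4087 genes. The summed level of the members was 3 higher in STZ than in Con (log2), 2.71 under median-ratio scaling and 2.55 to 3.40 with 1 mouse left out.

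Mouse numbers are shared by the groups, but no source says that they mark a shared cage, litter or day. Deviations of same-numbered mice correlated at -0.249 to 0.472 (median 0.0315), over 0.1 in 16 of 45 pairs of same-numbered mice. In 1 of 15 pairs of groups, A10-FMT and Con-FMT, all 3 numbers were over 0.1 (0.121 to 0.291). Each mouse was most like its own number there, and this also held between Con and A10-FMT, at 0.063 to 0.145. The main fits used no pairing in any comparison. The intervals given for A10-FMT against Con-FMT and the errors given for A10-FMT against Con therefore ignore it. A replicate block was run for every comparison as an alternative. With the replicate block the number of members called was 5 in STZ against Con, 3 in each FMT group against Con, 7 in STZ+AOS against AOS and 0 in the other comparisons, as without it. Of all genes 3714 were called with the block in STZ against Con and 4029 in STZ+AOS against AOS. In A10-FMT and Con-FMT against Con they were 1441 and 1453, and against STZ 17 and 1. The block together with median-ratio scaling was chosen after seeing the data.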
